A study of Homo sapiens with 6 samples.

Results

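The genes described here are 37 genes of NF-kB signalling and of cytokines other than chemokines, taken as a list of symbols that covers the NF-kB subunits, their inhibitors, the kinases that release them, receptor-proximal adaptors, feedback and target genes, and secreted cytokines. Each of the 37 symbols matched 1 Ensembl identifier among the 63186 in the count table. RNA was sequenced from RBE, an established line of human intrahepatic cholangiocarcinoma, the cancer of bile ducts inside the liver. In 1 group (si-Ctrl, 3 libraries) the cells received a control siRNA with a lipid transfection reagent, and in the other (si-CHAF1A, 3 libraries) an siRNA against CHAF1A by the same reagent, at about 60% confluency. Medium was renewed at 24 h and cells were taken at 48 h in both groups, no untransfected cells are part of the series, and the labels give neither the siRNA sequences nor whether more than 1 was used. CHAF1A encodes a subunit of CAF-1, the histone chaperone that deposits histones behind the replication fork.

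NF-kB is a family of dimeric transcription factors that wait in the cytoplasm bound to inhibitor proteins. In the canonical branch, receptors for tumour necrosis factor, interleukin-1 or bacterial products recruit adaptors and ubiquitin ligases that switch on the IKK complex, which marks the inhibitors for destruction and frees RELA and REL dimers. In the non-canonical branch, the kinase NIK accumulates when its degradation stops, and IKK alpha then drives processing of the NFKB2 precursor so that RELB dimers form. Many target genes of the family encode its own inhibitors and subunits, and in biliary epithelium the family drives cytokines and adhesion molecules during inflammation of the bile ducts.

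Library totals ran from 15643381 to 20918997 counts. CHAF1A (ENSG00000167670) itself ranged from 51.0 to 59.8 CPM under si-Ctrl and from 11.1 to 12.9 CPM under si-CHAF1A, so each library matched its label (CPM is the read count normalised to library size, after scaling between libraries). The 8 markers of biliary epithelium were all present, and their summed level was 4154 to 4817 CPM in si-Ctrl and 5360 to 5882 CPM in si-CHAF1A. Of 8 leukocyte markers, 7 had means under 1 CPM in both groups, and the exception was ITGAM at 18.5 to 23.3 and 25.2 ± 0.181 CPM. Summed fibroblast markers went from 8.66 to 11.8 CPM in the controls to 16.02 to 36.2 CPM in the knockdown. The upper value was that of si-CHAF1A 1, against 16.02 and 17.4 CPM in si-CHAF1A 2 and 3. Summed endothelial markers went from 2.52 to 3.77 CPM to 7.24 to 9.15 CPM. Mean levels were under 1 CPM in both groups for 3 of 6 fibroblast and 3 of 5 endothelial markers. Summed hepatocyte markers, of which 5 of 6 were under 1 CPM, went from 16.4 to 25.7 CPM to 30.3 to 53.0 CPM, nearly all of it SERPINA1. The part of these markers in the results below was not tested, and in bulk RNA a change in the cells present cannot be told apart from a change in RNA per cell. The library si-Ctrl 2 stood apart on the second principal component, which carried 11.2% of the variance, at -29.6 against 14.9 and 13.9 for the other controls.

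Of the 37 genes, 32 had enough counts to be tested, and these moved in both directions after CHAF1A knockdown. By edgeR's quasi-likelihood test with an adjusted p under 0.05, 8 of the 32 were higher in si-CHAF1A and 9 were lower, where over all 15911 tested genes 18.5% were higher and 19.3% lower. Together 17 of 32 passed, or 53.1%, against 37.8% of all genes. The median log2 fold change was -0.05, against 0.00 over all genes, and it turned to 0.03 (0.01 over all genes) without si-Ctrl 2. At 18 of the 32 genes the 3 libraries of a group all lay above the 3 of the other, 8 higher and 10 lower, while 48.2% of all tested genes were separated in this way, 24.1% higher and 24.1% lower. Only ICAM1 and IL1B rose at least 2-fold, 2 of 32 genes, against 4.19% of all genes. None fell at least 2-fold, against 1.46% of all genes, by edgeR (0 also at an unadjusted p under 0.05) or by DESeq2 (0 as well), and the largest fall was that of BIRC3. Each of the 17 calls held in all 11 alternative analyses. Without si-Ctrl 2, which was the highest control at 22 of the 32 genes (41.2% of all genes), 12 were higher and 10 lower, and over all genes 21.3% were then higher and 22.5% lower.

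**Figure D1:**
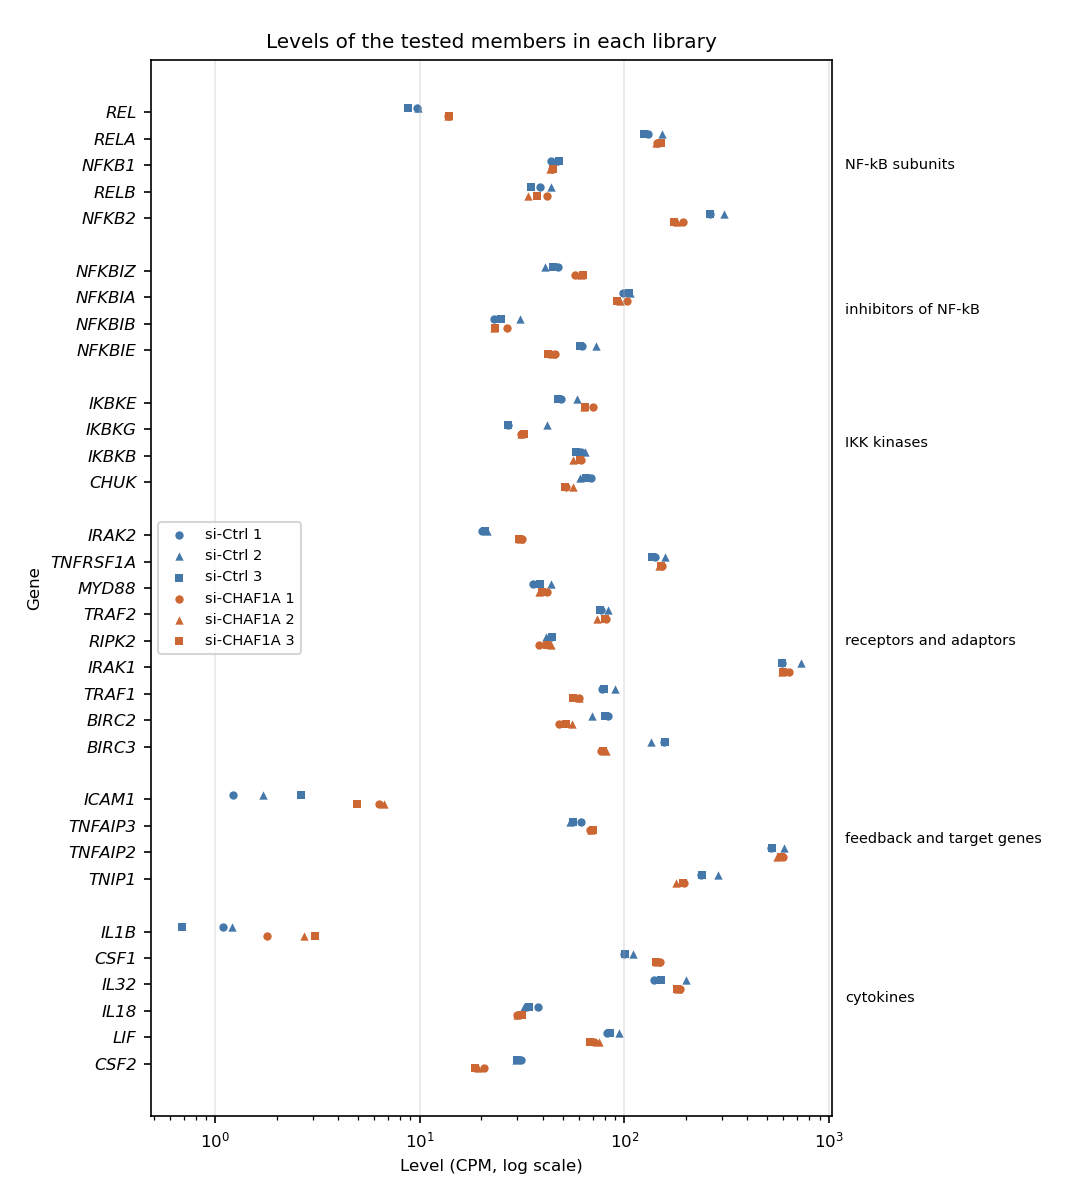
Levels of the 32 tested genes in each of the 6 libraries, in CPM on a log axis, ordered by role and, within a role, by fold change; blue marks si-Ctrl, orange si-CHAF1A, and the marker shape gives the replicate number. Blue and orange points are apart at 18 genes, from REL (8.72 to 9.75 CPM against 13.7 to 13.9 CPM) to CSF2 (29.6 to 31.2 CPM against 18.6 to 20.6 CPM), and the blue triangle of si-Ctrl 2 is the outermost control at IKBKG and IL32.

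Promoter stretches that hold an NF-kB motif are shown so that higher and lower genes with a match can be set side by side. The 300 bases around each RefSeq start site (250 before and 50 from the start on, GRCh38.p14) were searched on both strands for the NF-kB consensus, the kappa B motif, a word of 10 bases. RefSeq windows were matched for 30 of the 37 genes. A match was present in at least 1 window of 13 of these 30 genes (43.3%), against 3619 of 27305 genes with a window (13.3%), or 11.3% of all windows. Among the genes that passed the test and had a window, 3 of 7 higher genes and 3 of 7 lower genes had a match, and 5 of 11 genes that did not pass and 2 of 5 that were not tested had one as well. The share with a match was thus 42.9% in both directions, 45.5% among genes that did not pass and 40.0% among those not tested. The 6 moved genes with a match are printed 5′ to 3′ on the strand of the gene, and capitals mark the motif matches, some of which overlap. NFKBIZ and BIRC3 are shown with 25 bases on either side, and the other 4, whose stretches reach into an annotated exon of the gene, with 4 bases. Of the higher genes these are REL (chr2:60881523-60881541, plus strand), NFKBIZ (chr3:101827742-101827801, plus strand) and TNFAIP3 (chr6:137867188-137867217, plus strand).
REL: ccgcGGGAAATTCCCctcc
NFKBIZ: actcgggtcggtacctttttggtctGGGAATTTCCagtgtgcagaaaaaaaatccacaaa
TNFAIP3: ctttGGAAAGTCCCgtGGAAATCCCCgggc
Of the lower genes they are NFKB2 (chr10:102394467-102394485, plus strand), BIRC3 (chr11:102317260-102317383, plus strand) and TNIP1 (chr5:151081063-151081080, minus strand).
NFKB2: tcatGGGAATTCCCCcctc
BIRC3: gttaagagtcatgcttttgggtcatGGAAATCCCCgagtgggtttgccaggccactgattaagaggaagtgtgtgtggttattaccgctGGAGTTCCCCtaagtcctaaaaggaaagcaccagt
TNIP1: tccgGGGACTTTCCcagg
The first match began 47 bases before the RefSeq start site in REL, 223 in NFKBIZ and 67 in TNFAIP3, and 107 in NFKB2, 199 in BIRC3 and 42 in TNIP1. Where a gene had several windows, the one with most matches is shown: for NFKB2 and TNIP1 this window belongs to a start inside the gene, and the window at the first start of NFKB2 had no match. The NFKB2 window held 3 match positions, of which 2 are printed, and the one 78 bases before the start site is not. NFKBIZ had 1 match in each of its windows, and the window at the lower position is shown. The matches of REL, TNFAIP3, NFKB2 and TNIP1 lie inside the gene as GENCODE 29 annotates it, and those of NFKBIZ and BIRC3 lie before it. A match of letters is a description of the window and does not show that a factor was bound, and windows without these letters say nothing about binding.

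Of the 5 NF-kB subunits, REL rose and NFKB2 fell, 20% each way, near the 18.5% higher and 19.3% lower over all genes. RELA, RELB and NFKB1 did not pass the test. REL (ENSG00000162924, chromosome 2, 60881521 to 60931610), a subunit with a transactivation domain, stood at 9.72, 9.75 and 8.72 CPM in si-Ctrl 1, 2 and 3 and at 13.7, 13.7 and 13.9 CPM in si-CHAF1A 1, 2 and 3. Every knockdown library lay above every control library, and the rise was 1.46-fold (log2 0.55, SE 0.11, edgeR adjusted p = 0.00101). The REL stretch printed above holds overlapping motif matches. NFKB2 (ENSG00000077150, chromosome 10, 102394110 to 102402529), the precursor from which the p52 subunit is cut, was at 263, 308 and 261 CPM in the controls and at 194, 181 and 175 CPM in the knockdown. It fell 1.51-fold with no overlap (log2 fold change -0.60, SE 0.07, edgeR adjusted p = 1.41e-05).

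RELA, the main transactivating partner in the canonical branch, was at 136 ± 14.5 CPM in si-Ctrl and 146 ± 3.97 CPM in si-CHAF1A (SD, n = 3 each; log2 fold change 0.10, edgeR adjusted p = 0.322). Without si-Ctrl 2, whose 152 CPM was the highest control value, RELA passed the test at 0.19 (edgeR adjusted p = 0.00112). It did not pass without si-Ctrl 1 (0.07, edgeR adjusted p = 0.584) or without si-Ctrl 3 (0.04, edgeR adjusted p = 0.768). RELB, the partner of p52, was at 39.2 ± 4.44 and 37.8 ± 4.05 CPM, and NFKB1, which gives the p50 subunit, was at 45.7 ± 2.04 and 44.3 ± 0.654 CPM, with overlapping groups for both. Set per kb of exon so that genes can be compared, NFKB2 had the highest control level of the family at 61.8 CPM per kb, followed by RELA at 24.9, RELB at 12.9, NFKB1 at 7.30 and REL at 0.714 CPM per kb. No neighbours in this order overlapped in their control ranges. NFKB2 made up 57.4% ± 0.426 of the family's summed level per kb in the controls and 46.4% ± 1.36 in the knockdown (SD, n = 3 each; exact permutation test, two-sided, p = 0.1, the smallest that 3 libraries against 3 can give). Shares sum to a fixed total, so the fall of NFKB2 raises those of the other 4, and RELA went from 23.1% ± 0.395 to 30.3% ± 1.42 although its own level did not pass the test. Lengths are unions of all annotated exons, so long untranslated parts lower the level per kb of a gene such as REL.

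Of the 4 inhibitors, NFKBIZ was higher and NFKBIE lower (25% each way, against 18.5% higher and 19.3% lower over all genes). NFKBIZ (ENSG00000144802, chromosome 3, 101827991 to 101861022) encodes I kappa B zeta, an atypical nuclear member that modulates which NF-kB targets are expressed. It was at 47.4, 40.8 and 44.7 CPM in the controls and 57.3, 61.2 and 62.9 CPM in the knockdown, a 1.37-fold rise with the groups apart (log2 fold change 0.45, SE 0.08, edgeR adjusted p = 0.000319). NFKBIE (ENSG00000146232, chromosome 6, 44258166 to 44265788), the cytoplasmic inhibitor I kappa B epsilon, went from 62.2, 72.7 and 61.0 CPM to 45.7, 44.3 and 42.2 CPM. All knockdown values were under all control values, and the fall was 1.48-fold (log2 -0.57, SE 0.08, edgeR adjusted p = 5.87e-05).

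NFKBIA, the classical inhibitor I kappa B alpha and a widely used readout of canonical activity, was at 98.6, 106 and 105 CPM in si-Ctrl and 103, 95.7 and 92.4 CPM in si-CHAF1A. The groups overlapped (log2 fold change -0.09, SE 0.07, edgeR adjusted p = 0.316). NFKBIB, I kappa B beta, was at 26.3 ± 4.08 and 24.3 ± 2.05 CPM (log2 fold change -0.12, edgeR adjusted p = 0.447), and the gene overlaps SIRT2 on the opposite strand, so its reads are less certain. NFKBIA had the highest level per kb of these genes at 43.5 CPM per kb in the controls and 40.8 in the knockdown. The share of NFKBIE in the family's level per kb went from 28.8% ± 1.41 to 21.7% ± 0.320, and that of NFKBIZ from 8.61% ± 1.10 to 13.1% ± 1.12 (SD, n = 3 each; exact permutation test, two-sided, p = 0.1 for each).

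Among the 4 kinases, CHUK fell and IKBKE rose (25% each way, against 19.3% lower and 18.5% higher over all genes). CHUK (ENSG00000213341, chromosome 10, 100188298 to 100229619), which encodes IKK alpha, the catalytic subunit needed in the non-canonical branch, was at 68.6, 61.0 and 64.8 CPM in the controls and 51.8, 56.0 and 51.4 CPM in the knockdown. The difference was small but the groups did not overlap (1.22-fold lower, log2 fold change -0.29, SE 0.07, edgeR adjusted p = 0.00647). CHUK overlaps ERLIN1 on the same strand, so its reads are less certain. IKBKE (ENSG00000263528, chromosome 1, 206470476 to 206496889), the IKK-related kinase IKK epsilon, was at 48.7, 58.7 and 47.4 CPM and then 70.4, 63.6 and 64.2 CPM, 1.28-fold higher (log2 fold change 0.35, SE 0.09, edgeR adjusted p = 0.00441). IKBKB, the catalytic subunit IKK beta of the canonical branch, was at 61.2 ± 3.21 and 59.3 ± 2.60 CPM (log2 fold change -0.04, edgeR adjusted p = 0.667).

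IKBKG, the regulatory subunit NEMO, was at 26.9, 41.8 and 27.1 CPM in the controls and 31.2, 31.2 and 32.3 CPM in the knockdown. The mean therefore hardly differed (log2 fold change -0.02, edgeR adjusted p = 0.915), but si-Ctrl 2 was the only control above the knockdown libraries, and without it IKBKG passed the test at 0.22 (edgeR adjusted p = 0.0269). IKBKG has a near-identical pseudogene copy, so its counts are uncertain. The share of IKBKE in the level per kb of the 4 kinases went from 36.3% ± 0.587 to 44.3% ± 1.52, and that of CHUK from 25.2% ± 3.63 to 19.5% ± 1.24 (SD, n = 3 each; exact permutation test, two-sided, p = 0.1 for each).

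**Figure D2:**
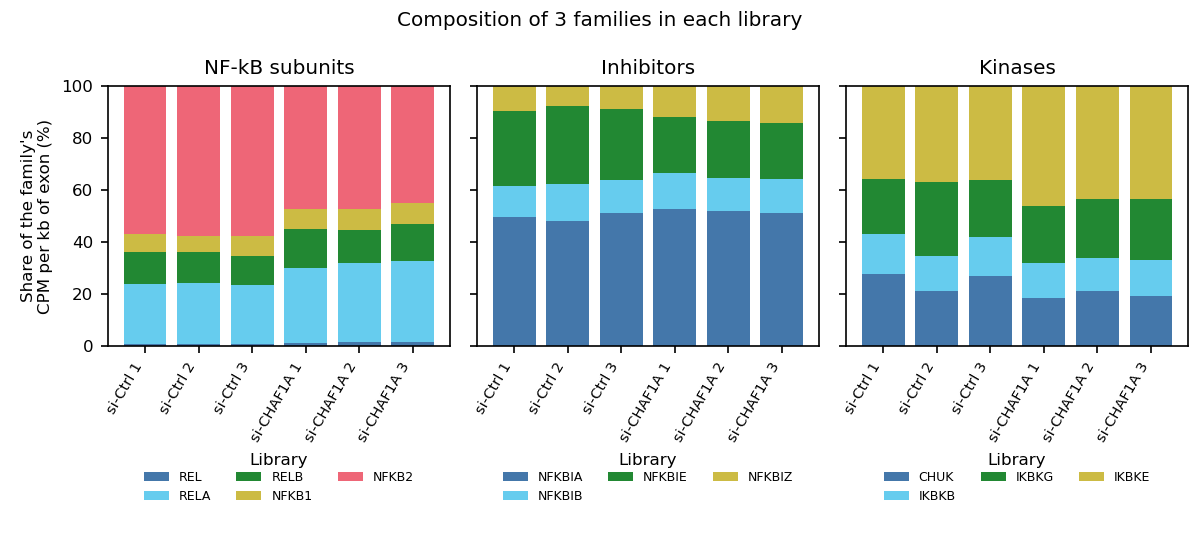
Share of each gene in the summed level (CPM per kb of exon, in %) of the 5 NF-kB subunits, the 4 inhibitors and the 4 kinases, with 1 stacked bar per library. The NFKB2 share is smaller in the 3 si-CHAF1A bars (44.8% to 47.2%) than in the 3 si-Ctrl bars (56.9% to 57.7%), and the IKBKE share is larger (43.3% to 46.1% against 35.9% to 37.0%).

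In the group of receptors and adaptors, 3 of 9 tested genes were lower and 1 was higher (33.3% and 11.1%, against 19.3% and 18.5% of all genes). BIRC3 (ENSG00000023445, chromosome 11, 102317450 to 102339403), the ubiquitin ligase cIAP2 and itself an NF-kB target, was at 156, 135 and 158 CPM in the controls and 76.9, 81.1 and 78.3 CPM in the knockdown. The lowest control value was well above the highest knockdown value, and BIRC3 was lower by 1.897-fold (log2 -0.92, SE 0.07, edgeR adjusted p = 1.19e-07). Its neighbour BIRC2 (ENSG00000110330, chromosome 11, 102347211 to 102378670), the related ligase cIAP1, was at 83.3, 69.4 and 80.8 CPM and then 47.9, 55.7 and 52.0 CPM. BIRC2 was 1.499-fold lower with the groups apart (log2 -0.58, SE 0.08, edgeR adjusted p = 5.97e-05), and it had no motif match in its windows.

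TRAF1 (ENSG00000056558, chromosome 9, 120902393 to 120929173), an adaptor that binds cIAP proteins and is induced by NF-kB, was at 77.8, 89.7 and 79.5 CPM in the controls and 60.0, 60.1 and 56.3 CPM in the knockdown. It fell 1.40-fold with no overlap (log2 fold change -0.49, SE 0.07, edgeR adjusted p = 0.000102). IRAK2 (ENSG00000134070, chromosome 3, 10164865 to 10243743), a kinase-like adaptor of interleukin-1 and Toll-like receptors, was the member of this group that rose. Its values were tight, 20.1, 21.4 and 20.9 CPM against 31.6, 30.8 and 30.5 CPM, a 1.49-fold rise (log2 fold change 0.57, SE 0.08, edgeR adjusted p = 7.36e-05). Thus the cIAP genes and TRAF1 fell, and IRAK2 alone among the 9 rose.

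The other tested receptors and adaptors did not pass the test. TNFRSF1A, the main receptor for tumour necrosis factor, was at 145 ± 10.8 and 151 ± 2.71 CPM (SD, n = 3 each), and TRAF2, the adaptor that brings cIAP proteins to it, was at 78.6 ± 4.22 and 78.4 ± 3.94 CPM. MYD88, the common adaptor of interleukin-1 and Toll-like receptors, was at 39.4 ± 3.93 and 40.0 ± 1.84 CPM. IRAK1, the kinase downstream of MYD88, had the highest level per kb of all 37 genes, 159 CPM per kb in the controls and 152 in the knockdown, with overlapping values of 588 to 728 and 587 to 636 CPM. RIPK2, the kinase that relays signals from NOD receptors, was at 43.0 ± 1.51 and 41.4 ± 2.74 CPM. The 5 log2 fold changes lay between -0.07 and 0.05, with edgeR adjusted p-values from 0.538 to 0.972. NOD2, an intracellular sensor of bacterial cell wall fragments, had 8 counts in the controls together and 14 in the knockdown and was not tested.

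**Figure D3:**
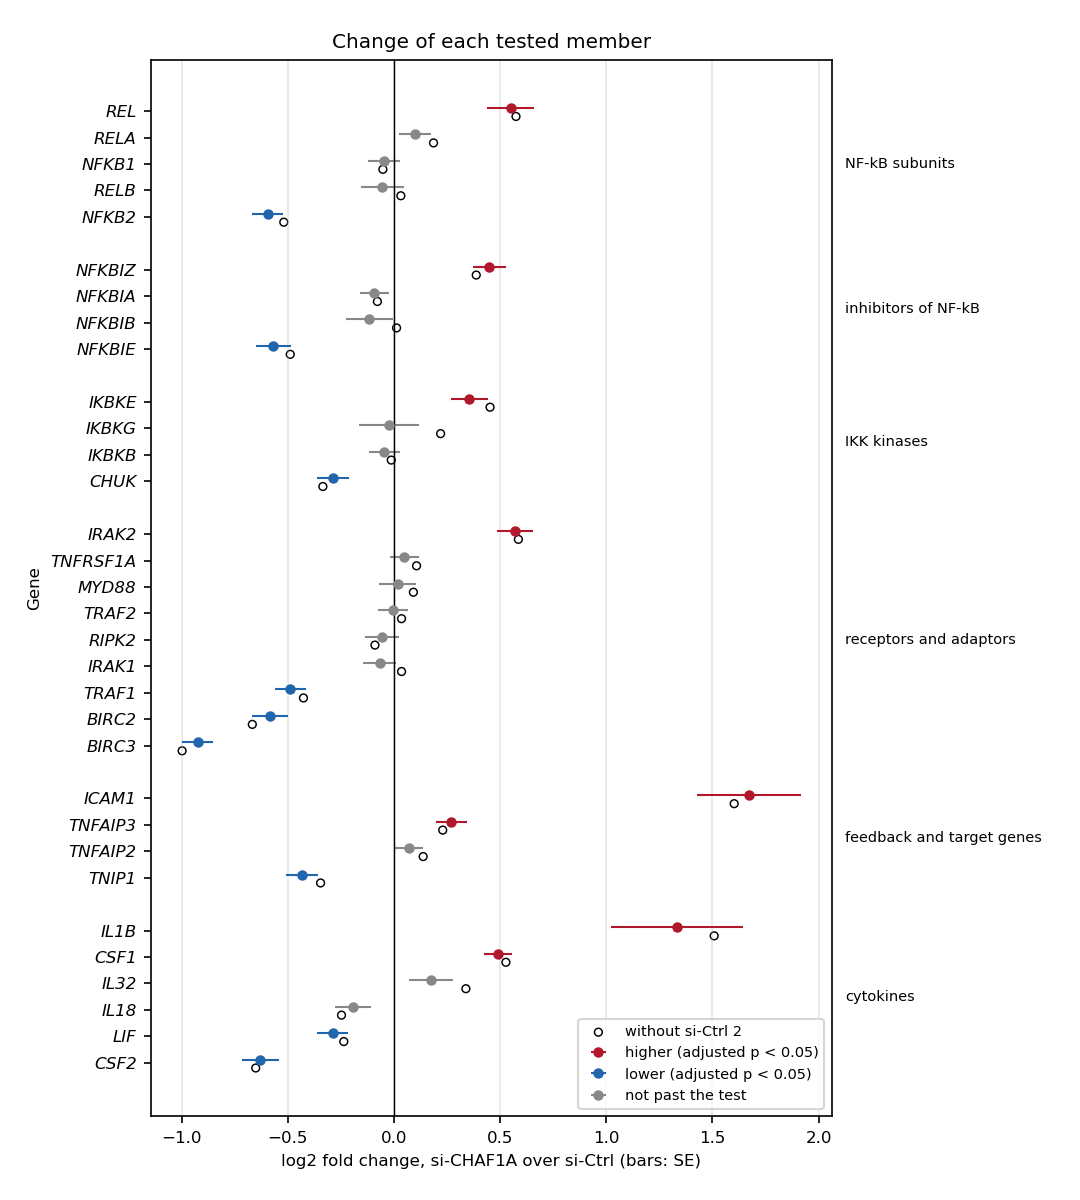
Log2 fold change of si-CHAF1A over si-Ctrl for the 32 tested genes with bars of 1 SE, by role; red and blue are genes higher and lower at an adjusted p under 0.05, grey did not pass, and open circles give the value without si-Ctrl 2. Each role holds at least 1 red and 1 blue gene, where over all tested genes 18.5% were higher and 19.3% lower. The values run from -0.92 (BIRC3) to 1.67 (ICAM1).

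Of the 4 feedback and target genes, 2 were higher and 1 was lower (50% and 25%, against 18.5% and 19.3% of all genes). TNFAIP3 (ENSG00000118503, chromosome 6, 137867188 to 137883312) encodes A20, a ubiquitin-editing enzyme that shuts the pathway down. It was at 61.4, 54.4 and 55.9 CPM in the controls and 68.2, 68.5 and 70.3 CPM in the knockdown, a 1.21-fold rise in which the groups did not overlap (log2 fold change 0.27, SE 0.07, edgeR adjusted p = 0.00744). TNIP1 (ENSG00000145901, chromosome 5, 151029945 to 151093577), a partner that binds A20, was at 238, 287 and 241 CPM and then 195, 180 and 193 CPM. TNIP1 fell 1.35-fold with the groups apart (log2 fold change -0.43, SE 0.08, edgeR adjusted p = 0.000339). A20 and its partner each carry a motif match in the stretches printed above, within the last 67 bases before the RefSeq start used.

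ICAM1 (ENSG00000090339, chromosome 19, 10270835 to 10286615), the adhesion molecule that leukocytes bind on inflamed epithelium, showed the largest rise of the 32 tested genes, but from a low level. Its CPM were 1.22, 1.72 and 2.64 in the controls and 6.30, 6.66 and 4.94 in the knockdown, from 99 and 310 summed counts. The ratio of the groups was 3.19 (log2 1.67, SE 0.24, edgeR adjusted p = 6.33e-05) and ranged from 1.46 to 1.99 on the log2 scale when 1 library was left out. ICAM1 overlaps antisense genes, as do CHUK, IKBKE, TNFAIP3 and LIF among the called genes. The strand setting of the counting is not given in the sources used here. TNFAIP2, a target induced by tumour necrosis factor, was among the highest of the genes per kb, at 110 and 115 CPM per kb, and did not pass (551 ± 47.4 and 579 ± 20.7 CPM, log2 fold change 0.07, edgeR adjusted p = 0.452). Without si-Ctrl 2 its value was 0.14 and passed (edgeR adjusted p = 0.0027).

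Of the 6 tested cytokines, CSF1 and IL1B rose, CSF2 and LIF fell, and IL18 and IL32 did not pass (33.3% each way, against 18.5% higher and 19.3% lower over all genes), and 4 others were too low to be tested. CSF1 (ENSG00000184371, chromosome 1, 109910242 to 109930992), the growth factor of macrophages, was at 99.9, 110 and 101 CPM in the controls and 149, 144 and 143 CPM in the knockdown. The rise was 1.40-fold with the groups well apart (log2 0.49, SE 0.07, edgeR adjusted p = 3.04e-05). CSF2 (ENSG00000164400, chromosome 5, 132073790 to 132076170), which encodes GM-CSF, the growth factor of granulocytes and macrophages, went the other way, from 31.2, 29.6 and 29.8 CPM to 20.6, 19.3 and 18.6 CPM. It fell 1.55-fold, again with no overlap (log2 fold change -0.63, SE 0.09, edgeR adjusted p = 4.25e-05). Per kb the order of these 2 genes reversed, since CSF2 was above CSF1 in the controls (38.4 ± 1.13 and 19.1 ± 1.01 CPM per kb) and just below it in the knockdown (24.8 ± 1.30 and 26.8 ± 0.567 CPM per kb).

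LIF (ENSG00000128342, chromosome 22, 30240447 to 30246851), a cytokine of the interleukin-6 family, was at 81.9, 93.6 and 85.0 CPM in the controls and 71.0, 74.8 and 67.7 CPM in the knockdown. It was 1.22-fold lower with no overlap (log2 fold change -0.29, SE 0.07, edgeR adjusted p = 0.00569). IL1B (ENSG00000125538, chromosome 2, 112829751 to 112836903), the secreted pro-inflammatory interleukin-1 beta, rose 2.52-fold from 1.09, 1.21 and 0.688 CPM to 1.78, 2.70 and 3.09 CPM. That rise rests on 53 and 132 summed counts (log2 fold change 1.33, SE 0.31, edgeR adjusted p = 0.00315), and its level per kb in the knockdown, 0.815 CPM per kb, stayed far below that of CSF1 or LIF.

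IL18, an epithelial cytokine of the interleukin-1 family, was at 37.8, 32.5 and 34.1 CPM in the controls and 29.96, 29.8 and 31.4 CPM in the knockdown. Its groups did not overlap, yet it missed the threshold (log2 -0.19, SE 0.09, edgeR adjusted p = 0.0883), and it did pass without si-Ctrl 2 (-0.25, edgeR adjusted p = 0.00971). IL32, a cytokine induced by NF-kB that was abundant here, was at 139, 199 and 151 CPM in the controls and 187, 183 and 182 CPM in the knockdown. Only si-Ctrl 2 lay above the knockdown libraries, and the log2 fold change of 0.17 (SE 0.10, edgeR adjusted p = 0.204) became 0.34 without it (edgeR adjusted p = 2.67e-08). IL32 did not pass without si-Ctrl 1 (0.07, edgeR adjusted p = 0.626) or without si-Ctrl 3 (0.11, edgeR adjusted p = 0.482).

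The remaining cytokines were too low to be tested. IL1A, the neighbour of IL1B, had 18 counts in the controls and 24 in the knockdown, and IL6 had 1 and 6. TNF and LTB, neighbours on chromosome 6 (31575567 to 31578336 and 31580525 to 31582522), had 0 counts in all 6 libraries, and 3 counts, the limit that a count of 0 allows, correspond to 0.152 to 0.192 CPM per library. These zeros cannot be read as absent RNA, because counts were missing across the whole surrounding region. Of 153 protein-coding genes between 29 and 33 Mb of chromosome 6, 10 had enough counts to be tested (6.54%), against 570 of 885 on the rest of that chromosome (64.4%), and 88 had no count at all. The highest mean level of a gene in that region was 4.73 CPM. Within the wider pathway NFKBIL1, IER3 and CFB lie in the same region and were at or near 0 as well, named here after their values were seen.

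For the rest of the pathway a list of 97 further genes was taken, 83 of which were tested, and 25 of these were higher and 11 lower (30.1% and 13.3%, against 18.5% and 19.3% of all genes). The list median of the log2 fold change was 0.06. Among other NF-kB target genes 11 of 23 were higher and 3 lower (47.8% and 13.0% against 18.5% and 19.3% of all genes), with a median of 0.25. SDC4, a cell surface proteoglycan, rose 2.23-fold from 147 ± 9.44 to 327 ± 10.8 CPM and complement C3 rose 1.93-fold from 72.6 ± 8.67 to 140 ± 5.16 CPM, as did the mitochondrial enzyme SOD2 by 1.23 on the log2 scale. The protease PLAU, also a target, was 2.19-fold lower, at 350.1 ± 14.1 and 160.1 ± 4.64 CPM (SD, n = 3 each; edgeR adjusted p = 2.06e-09).

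Other receptors were higher at 4 and lower at 2 of 14 tested genes (28.6% and 14.3%, against 18.5% and 19.3% of all genes). TNFRSF1B, the second receptor for tumour necrosis factor, rose 2.06-fold from 3.98 ± 0.690 to 8.23 ± 1.23 CPM, and TLR4, the receptor for bacterial lipopolysaccharide, rose 1.44-fold. The interleukin-1 receptor chains moved apart, with IL1R1 at 14.6 ± 1.80 and 22.8 ± 0.748 CPM (1.56-fold higher) and its co-receptor IL1RAP at 19.0 ± 0.532 and 8.76 ± 0.331 CPM (2.17-fold lower, edgeR adjusted p = 6.92e-07). Beside the rise of IL1B, the decoy receptor IL1R2 fell 1.57-fold and the receptor antagonist IL1RN rose 1.92-fold. Of 7 tested cytokine receptors and decoys 3 were higher and 1 lower (42.9% and 14.3%, against the same 18.5% and 19.3%), and the receptors IL6R and LIFR rose 1.33-fold and 1.32-fold. CSF2RB, a receptor chain for CSF2, had no counts, and CSF2RA also had none. CSF2RA is present on both the X and the Y chromosome, and 12 of the 18 protein-coding genes of that kind had no count.

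Among other adaptors and signalling enzymes 4 of 26 were higher and 2 lower, together 23.1% against 37.8% of all genes, and among the 20 that did not pass were RIPK1, MAP3K7, TBK1 and XIAP (named after their values were seen). TRAF3, the adaptor that marks NIK for degradation, rose 1.72-fold from 74.7 ± 4.47 to 128 ± 2.20 CPM (edgeR adjusted p = 3.34e-07). MAP3K14, which encodes NIK, fell 1.62-fold from 189 ± 18.0 to 116 ± 4.82 CPM (edgeR adjusted p = 3e-06). The kinase MAP3K8 rose 1.47-fold. Other inhibitors and deubiquitinases were higher at 3 and lower at 3 of 13 tested genes, 23.1% each way, near the 18.5% and 19.3% of all genes. The ribonuclease ZC3H12A, which degrades cytokine mRNAs, rose 1.56-fold and the nuclear I kappa B protein BCL3 rose 1.32-fold, while TNIP2, a relative of TNIP1, fell 1.43-fold and the deubiquitinase OTUD7B fell 1.25-fold.

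**Figure D4:**
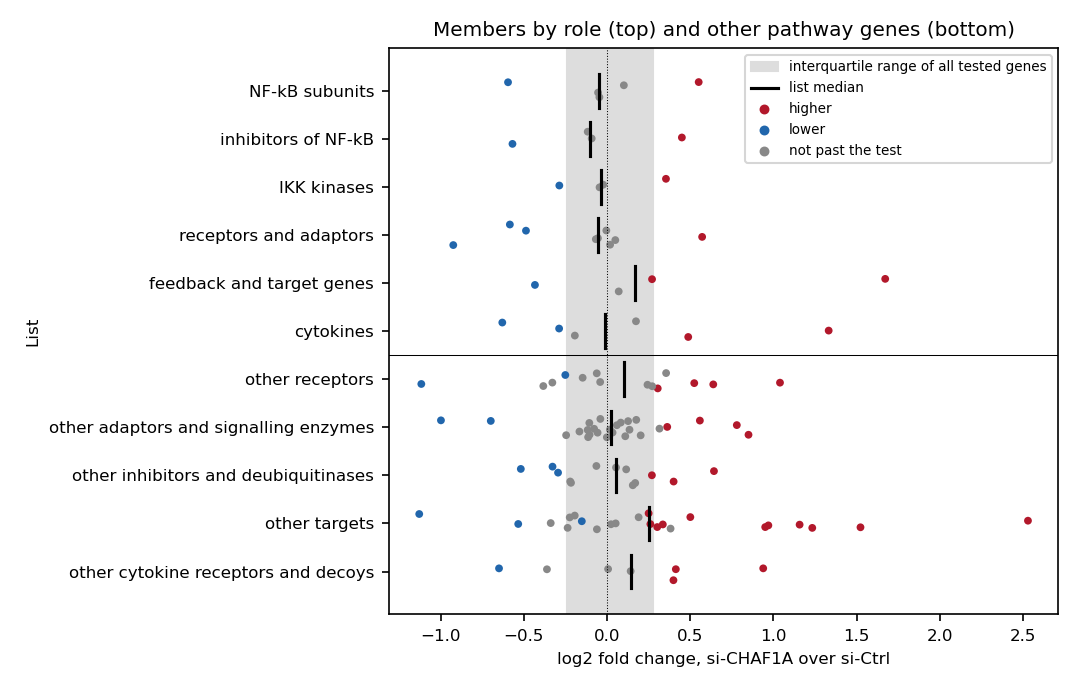
Log2 fold change of each tested gene by list, the 6 roles of the 37 genes above the line and the 5 lists of other pathway genes under it; points are genes coloured by call, black bars are list medians and the grey band is the interquartile range of all tested genes (-0.24 to 0.28). The medians of the 6 roles lie between -0.10 and 0.17, and that of other targets at 0.25, all inside the band.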

How the data were processed

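The deposited values are gene-level read counts, whole numbers without normalisation. The submitters' processing notes name fastp 0.20.1, HISAT2 2.1.0, SAMtools 1.9, featureCounts 2.0.1, StringTie 2.1.4 and hg38. The annotation and the strand and multi-mapping settings were not given in the sources used here. Columns NC and si were read as si-Ctrl and si-CHAF1A with the numbers of the titles, a reading the labels do not state; columns of other samples numbered 0.

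Genes were kept with filterByExpr (minimum count 10, minimum total 15), leaving 15911 of 63186. Groups were compared with edgeR 4.0.16 (R 4.3.3; TMM, robust quasi-likelihood test), with Benjamini-Hochberg adjustment over all tested genes and a threshold of 0.05. The script was tested on simulated data. SE is the log2 fold change divided by the square root of F. CPM use TMM-scaled totals of the tested genes. Positions and exon lengths come from GENCODE 29 (GRCh38), promoter windows from RefSeq (GRCh38.p14). Alternatives were RLE scaling, no filter, a filter of 1 CPM in every library of a group, DESeq2 1.42.0, a replicate block and leaving out each library.

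Members and lists were chosen with earlier results of these data known. All 37 members are accounted for. In each pathway list up to 4 genes with the smallest adjusted p are named, except that a result withheld for evaluation is not reported here. The design text calls the libraries biological replicates, and p-values set the difference between the groups against the spread among libraries within a group. All 6 libraries come from the RBE line. No pair of libraries was a duplicate (chi-square per degree of freedom 2.30 to 13.7 within groups).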

Additional observations from a re-analysis of the deposited data

How the results depend on the processing

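The 17 called genes kept their direction and stayed past the threshold in all 11 alternatives, with LIF closest to it (edgeR adjusted p = 0.0478 without si-CHAF1A 3). The numbers of higher and lower members were 8 and 9 in all alternatives but the one without si-Ctrl 2 (12 and 10). RELA, IKBKG, TNFAIP2, IL32 and IL18 passed in that alternative alone. It keeps si-Ctrl 1 and si-Ctrl 3, whose median coefficient of variation at the tested members was 2.97%, against 8.04% among all controls. The other pathway genes gave 21 to 28 higher and 7 to 13 lower when 1 library was left out, with 7 lower without si-CHAF1A 2 or si-CHAF1A 3. Over all genes DESeq2 called 2375 higher and 2746 lower. Some genes that did not pass changed sign. When 1 library was left out, RELB ranged from -0.14 to 0.033, NFKBIB from -0.20 to 0.013 and IRAK1 from -0.13 to 0.036. TRAF2 ranged from -0.036 to 0.038, MYD88 from -0.049 to 0.092 and IKBKG from -0.13 to 0.22. The 0.22 of IKBKG came without si-Ctrl 2 and was past the threshold (edgeR adjusted p = 0.0269). IKBKG was at 0.0068 with the replicate block and TRAF2 at 0.0028 with the filter of 1 CPM. The cause was not tested. Same-numbered libraries did not deviate together (correlations of deviations across genes of -0.09, -0.06 and -0.0031), so the numbers were not taken as pairs. With the replicate block 2675 genes were higher and 2723 lower, and no call of a member changed. Depth limits IL6, IL1A and NOD2, at 24 summed counts or fewer per group.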

Other observations

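Set side by side after their values were seen, the genes around NIK moved in several directions. MAP3K14, which encodes NIK, NFKB2, which is processed under its control, and CHUK, the kinase it activates, were lower, at log2 fold changes of -0.70, -0.60 and -0.29. Of the complex that degrades NIK, TRAF3 was higher at 0.78, BIRC2 and BIRC3 were lower at -0.58 and -0.92, and TRAF2 did not pass at -0.00. RELB did not pass at -0.05. The receptor LTBR, which feeds this branch and overlaps SCNN1A, was higher at 0.30 (148 ± 14.9 and 183 ± 3.99 CPM, SD, n = 3 each, edgeR adjusted p = 0.00416). LTBR is among the 14 other receptors tested, of which 4 were higher and 2 lower (28.6% and 14.3%, against 18.5% and 19.3% of all genes). Another of these receptors, TNFRSF12A, was lower at -0.25 (edgeR adjusted p = 0.0324), but its groups overlapped. Its highest value was that of si-Ctrl 2 at 103 CPM. Of the 8 receptors that did not pass, CD40 was at 0.36 and TNFRSF11A at -0.04 (edgeR adjusted p = 0.0807 and 0.744).

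Spread was wider among the 3 controls than among the 3 knockdown libraries, but not once si-Ctrl 2 was set aside. The median coefficient of variation of the 32 tested genes was 8.04% among the controls and 4.37% among the knockdown libraries. Over all tested genes the same medians were 10.5% and 7.32%. Between si-Ctrl 1 and si-Ctrl 3 alone, the median was 2.97% at the 32 genes and 5.37% over all tested genes. Both lay below the knockdown medians, though they rest on 2 libraries. At the 32 genes si-Ctrl 2 was above the mean of the other controls by a median of 0.15 on the log2 scale, against 0.01 over all genes.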
